A study of Mus musculus with 9 samples.

Results

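In cultured primary cortical neurons of wild-type (Wt) C57BL/6 mice, 34 cholesterol and fatty acid synthesis genes were measured after 7 h at 0.2% oxygen, with or without the thyroid hormone triiodothyronine (T3). Their RNA differed from normoxia by log2 changes of -0.49 to 0.55 without T3 and -0.64 to 0.56 with it. The members are the enzymes that build cholesterol and fatty acids, the regulators of SREBP, the transcription factor of these genes, and a pair of further lipid genes. They were chosen by gene symbol and by a value above 1 in at least 3 of 9 libraries. All 34 were found among the 24054 entries of the deposited table. The same value filter left 12923 genes for testing, so all 34 were in that set by the way they were chosen. The members comprise 8 enzymes that consume molecular oxygen, 20 enzymes that do not, and 6 regulators and carriers. The phosphatidate phosphatase Lpin1 is counted among the 20, and the sterol carrier Stard4 among the 6.

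RNA was sequenced from poly-A selected, stranded libraries in 3 groups of 3. The first group was exposed to hypoxia with 10 nM T3 in the medium, the second to hypoxia without added T3, and the third was the normoxia control. All cells had grown for 6 days in Neurobasal medium with B27 supplement, a serum-free supplement that itself contains lipids and hormones including T3. Separate cultures are not stated for the replicates, so the p-values cover the spread among these 3 libraries a group, part or all of which could be technical. Libraries are named here by the numbers in the column headers, 11 to 13 for hypoxia with T3, 7 to 9 for hypoxia and 1 to 3 for normoxia, and values are given in that order.

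Cells build cholesterol from acetyl-CoA by way of mevalonate and squalene, and fatty acids from acetyl-CoA by way of malonyl-CoA. The SREBP factors drive most of these genes. SCAP carries SREBP from the endoplasmic reticulum to the Golgi, where proteases release the active factor, and the INSIG proteins hold SCAP back when sterols are plentiful. Squalene epoxidase, several sterol oxidation steps after it and the acyl-CoA desaturases use molecular oxygen as a substrate. In the brain, cholesterol is made locally, by neurons during development and by glia, with astrocytes as a main supplier of mature neurons.

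Total recovered reads per library ranged from 17182338 to 33937842. The value of 1 read was 0.0302 to 0.0565 TMM-normalized CPM (reads scaled to a common library size), the unit of all levels below. The lowest member value was 11.5 CPM for Srebf1, and no member had fewer than 267 reads in any library. Counting error is therefore small for the members, and the spread between libraries sets the precision. Exons of Hmgcs1, Idi1, Fdft1, Lss, Cyp51, Srebf1, Scap and Acss2 overlap annotated exons on the opposite strand by 13 to 785 bases, and the strand setting of the counting is not given in the sources used here. On the same strand, Fdps shares 1124 exon bases with Gm43738, Scd2 shares 61 with Mir5114 and Tm7sf2 shares 14 with Vps51, so reads in these stretches are less certain. The label checks moved with the groups: Slc2a1, a glucose transporter induced by low oxygen, averaged 55.7 ± 6.81 CPM in hypoxia and 9.7 ± 0.422 CPM in normoxia (SD, n = 3 each). Hr, a direct target of the thyroid hormone receptor, averaged 32.8 ± 2.36 CPM in hypoxia with T3 and 4.7 ± 0.435 CPM in hypoxia. The ribosomal RNA precursor Rn45s took 1.04% to 2.65% of the summed values in hypoxia with T3, 1.04% to 1.33% in hypoxia and 3.25% to 4.21% in normoxia. Its part in the results was not tested.

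The culture was neuronal by its markers, with glia that varied between libraries. All 10 neuron markers passed the filter, summing to 6330 to 6494 CPM in hypoxia with T3, 6420 to 6967 CPM in hypoxia and 8229 to 8916 CPM in normoxia. By limma with an adjusted p under 0.05, 29.5% of all genes tested were lower than normoxia and 25.5% higher in hypoxia with T3. In hypoxia 19.3% were lower and 14.3% higher, and these shares are to be set beside each marker list here. Of the 10 neuron markers, 3 fell in hypoxia with T3 (30%), near the share of all genes, and 4 in hypoxia (40%). In either comparison 0 rose, and the median log2 changes of this list were -0.01 and -0.08. The neuron tubulin Tubb3 had the largest change of the list, averaging 701 ± 137 CPM in hypoxia with T3, 1104 ± 226 CPM in hypoxia and 2373 ± 178 CPM in normoxia. Without Tubb3 the list summed to 5492 to 5931 CPM in hypoxia with T3, 5387 to 5975 CPM in hypoxia and 5951 to 6379 CPM in normoxia. Of 10 astrocyte markers, 8 passed, and their list summed to 265, 364 and 279 CPM in hypoxia with T3, 201, 304 and 387 CPM in hypoxia, and 185, 191 and 296 CPM in normoxia. Slc1a2 alone gave 139 to 198 CPM of these sums, so they understate the change of the other markers. Against normoxia, the median log2 change was 1.04 in hypoxia with T3 and 1.01 in hypoxia. All 8 were above 0 in both, and 1 was called in each. Of 10 oligodendrocyte lineage markers, 9 passed, with sums of 145, 203 and 145 CPM in hypoxia with T3, 88.5, 215 and 229 CPM in hypoxia, and 50.1, 91.3 and 154 CPM in normoxia. Their median log2 change was 0.99 in hypoxia with T3 (8 above 0, 0 called) and 0.83 in hypoxia (9 above 0, 1 called). Of 6 progenitor markers, 5 passed. Their list summed to 54.7, 75.4 and 46.4 CPM in hypoxia with T3 and 30, 74.7 and 88.7 CPM in hypoxia. In normoxia it summed to 12.7, 35.6 and 73.4 CPM. None of 6 microglia or 4 endothelial markers passed, and those lists summed to at most 1.61 and 1.29 CPM in any library. In bulk RNA, fewer cells of a type and less RNA per cell cannot be told apart.

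Per kilobase of merged exon, normoxic levels spanned a wide range. Hmgcs1, the synthase that makes the substrate of the mevalonate step, was highest at 690 CPM per kb. The desaturase Scd2 followed at 330 CPM per kb and Fdps, which makes farnesyl diphosphate, at 318 CPM per kb. The squalene epoxidase Sqle stood at 185, the fatty acid synthase Fasn at 168 and the citrate lyase Acly at 166 CPM per kb. Srebf1, which encodes the SREBP isoform tied mainly to fatty acid genes, was lowest at 3.25 CPM per kb, against 126 CPM per kb for Srebf2, the isoform tied mainly to sterol genes.

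The promoters of 27 members could be read from RefSeq (GRCm38.p6, the mm10 build), as windows of 300 bases. They run from 250 bases before to 50 bases after the RefSeq gene start. Gene positions given with the levels below are from GENCODE, and their starts differ from the RefSeq starts of the genes whose windows are shown. Fads1, Fdft1, Fdps, Scd1, Scd2, Sqle and Stard4 had no entry. Motifs were searched on both strands. CCAAT, the box bound by NF-Y, a partner of SREBP, was in 21 of 27 member windows (77.8%), against 41.1% of the 27025 genes with a window. The sterol regulatory element in the form TCACNCCAC was in 1 (3.7%), Hmgcs1, against 1.44% of genes. The E-box CACGTG was in 5 (18.5%), Dhcr7, Hsd17b7, Insig1, Sc5d and Scap, against 8.09% of genes. The core ACGTG of the hypoxia response element, which every CACGTG also holds, was in 7 (25.9%), against 21.8% of genes. The DR4 thyroid hormone response element, a direct repeat searched in its consensus form, was in 0 members and 0.0148% of genes. These matches describe letters in the windows and do not show binding.

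The 3 windows below are shown because their genes fell in hypoxia or were higher with T3, and because they hold SREBP-associated motifs. Hmgcs1 holds TCACNCCAC and CCAAT, while Hsd17b7 and Insig1 both hold CACGTG and CCAAT. Capitals mark TCACNCCAC, CCAAT and CACGTG, with ATTGG as CCAAT on the opposite strand. They lie at chr13:119690101-119690400 on the plus strand for Hmgcs1, at chr1:169969156-169969455 on the minus strand for Hsd17b7 and at chr5:28071162-28071461 on the plus strand for Insig1.
Hmgcs1: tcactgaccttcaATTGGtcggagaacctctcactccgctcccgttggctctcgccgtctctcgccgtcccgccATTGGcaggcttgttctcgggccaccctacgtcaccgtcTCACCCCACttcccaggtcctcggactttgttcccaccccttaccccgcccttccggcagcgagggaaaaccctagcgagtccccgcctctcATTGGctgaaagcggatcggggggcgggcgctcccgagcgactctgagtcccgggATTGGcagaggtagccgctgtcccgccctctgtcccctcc
Hsd17b7: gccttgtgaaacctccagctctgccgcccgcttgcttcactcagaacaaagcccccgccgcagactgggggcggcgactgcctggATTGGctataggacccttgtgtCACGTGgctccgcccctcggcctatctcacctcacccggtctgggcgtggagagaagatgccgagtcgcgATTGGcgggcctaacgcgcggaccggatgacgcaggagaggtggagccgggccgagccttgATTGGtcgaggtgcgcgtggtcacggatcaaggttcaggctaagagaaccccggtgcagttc
Insig1: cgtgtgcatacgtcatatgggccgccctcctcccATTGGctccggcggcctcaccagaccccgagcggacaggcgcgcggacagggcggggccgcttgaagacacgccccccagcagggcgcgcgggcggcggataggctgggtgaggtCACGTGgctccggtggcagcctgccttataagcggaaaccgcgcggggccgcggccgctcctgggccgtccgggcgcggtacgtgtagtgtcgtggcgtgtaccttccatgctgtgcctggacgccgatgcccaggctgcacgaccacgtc
Hmgcs1 holds the sterol regulatory element at -137 from the RefSeq gene start and CCAAT on the opposite strand at -237, -176, -45 and 10. Hsd17b7 holds CACGTG at -143 and CCAAT on the opposite strand at -165, -73 and -12. Insig1 holds CACGTG at -101 and CCAAT on the opposite strand at -216.

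Most members had slightly lower values in hypoxia, and a minority passed the test. The log2 change was below 0 in 25 of 34. In hypoxia against normoxia, 8 of 34 members fell (23.5%) and 1 rose (2.94%), by limma with an adjusted p under 0.05, against 19.3% of all genes tested lower and 14.3% higher (33.6% in either direction). The share that fell is near that of all genes. The 8 were Hmgcs1, Sqle, Lss, Tm7sf2, Hsd17b7, Srebf2, Fasn and Acaca, and the one that rose was Srebf1. The median log2 change of the members, on the scale of log2 of the value plus 1, was -0.09 against -0.00 for all genes tested, and with columns scaled to equal sums it was 0.051 against 0.13. With equal sums 2 members were called lower (Acaca and Hsd17b7) and 4 higher (Fads1, Insig1, Scd2 and Srebf1), and with quantile normalization 4 and 4, so the balance of calls depends on the scaling. Equal sums ended the calls of Hmgcs1 (adjusted p = 0.22), Sqle (0.28), Lss (0.26), Tm7sf2 (0.13), Fasn (0.18) and Srebf2 (0.11). With no filter on low values 4 members were lower and 0 higher, and without a variance trend 5 and 0. The values of 10 of 34 members lay wholly lower in hypoxia, a share near the 27.0% of all genes. Those of 2 lay wholly higher, a share below the 20.7% of all genes. For the 25 members that did not pass, the 95% intervals of the log2 change ran from -0.49 to 0.40 at their outermost.

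**Figure D1:**
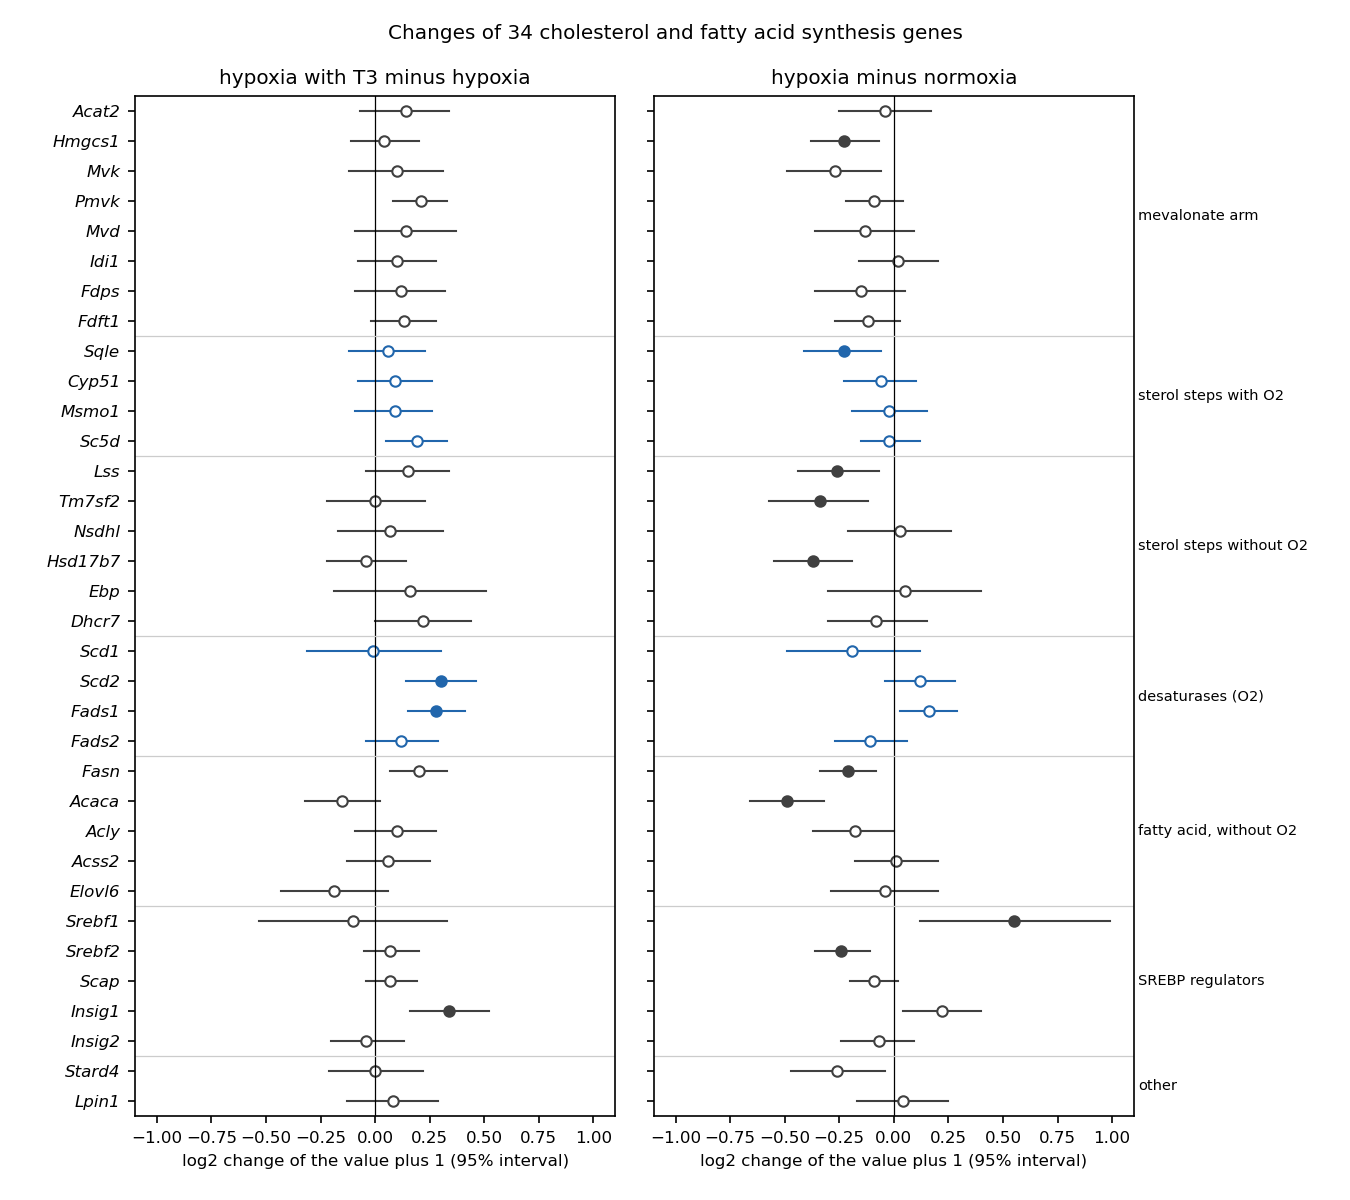
Log2 change, with its 95% interval, of each of the 34 members for hypoxia with T3 minus hypoxia (left panel) and hypoxia minus normoxia (right panel), grouped by role. Filled points passed an adjusted p of 0.05 and blue marks the 8 oxygen-using enzymes. In the right panel 8 filled points lie left of 0 and Srebf1 right of it, and in the left panel the 3 filled points are Scd2, Fads1 and Insig1.

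In the mevalonate arm, 1 of 8 enzymes fell in hypoxia (12.5%, against 19.3% of all genes tested), and the median log2 change was -0.12. The role lists here and below are small, and their shares were not tested against each other. Hmgcs1 (chr13:119690379-119708260) had 2221, 2059 and 2078 CPM in hypoxia with T3, 2229, 2105 and 1849 CPM in hypoxia, and 2480, 2355 and 2376 CPM in normoxia. All 3 hypoxia libraries were below all 3 normoxia libraries, and those with T3 were below normoxia too. Its log2 change in hypoxia was -0.23 (SE 0.07, adjusted p = 0.028). That call was lost without normoxia 1 (0.071), normoxia 3 (0.054), hypoxia 8 (0.052) or hypoxia 9 (0.1), given as adjusted p. Mvk, the mevalonate kinase, averaged 83.8 ± 11 CPM in hypoxia and 101 ± 3.8 CPM in normoxia, with an adjusted p of 0.052. The other 6, from the thiolase Acat2 to the squalene synthase Fdft1, had log2 changes of -0.15 (Fdps) to 0.02 (Idi1).

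Of the 4 sterol enzymes that use oxygen, 1 fell in hypoxia (25%, against 19.3% of all genes tested). It was Sqle, and the rest did not pass the test. Sqle (chr15:59315077-59331192), which adds the first oxygen to squalene and is a control point of the pathway, had 470, 419 and 466 CPM in hypoxia with T3, 461, 447 and 395 CPM in hypoxia, and 567, 488 and 478 CPM in normoxia. Hypoxia lay below normoxia in every library, with a log2 change of -0.23 (SE 0.08, adjusted p = 0.042). Without normoxia 1 (0.14), normoxia 2 (0.056), hypoxia 8 (0.065) or hypoxia 9 (0.16) its adjusted p was above the threshold. Cyp51, the lanosterol demethylase, had 467, 427 and 471 CPM in hypoxia with T3, 462, 437 and 385 CPM in hypoxia, and 487, 427 and 427 CPM in normoxia. These groups overlapped, and the log2 change in hypoxia was -0.06 (95% interval -0.23 to 0.10).

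Msmo1, the sterol methyl oxidase, had 218, 185 and 207 CPM in hypoxia with T3, 212, 188 and 176 CPM in hypoxia, and 206, 190 and 186 CPM in normoxia. Its groups overlapped as well, with a log2 change in hypoxia of -0.02 (95% interval -0.19 to 0.15). Sc5d, the lathosterol oxidase, had 144, 128 and 134 CPM in hypoxia with T3, 126, 111 and 119 CPM in hypoxia, and 124, 122 and 114 CPM in normoxia. Every library with T3 was above every other library for this gene. The log2 change of Sc5d was 0.19 in hypoxia with T3 against hypoxia (SE 0.06, adjusted p = 0.083) and -0.02 in hypoxia against normoxia (adjusted p = 0.86).

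Among the 6 sterol enzymes that do not use oxygen, 3 fell in hypoxia (50%, against 19.3% of all genes tested). The median log2 change was -0.17. Hsd17b7 (chr1:169949535-169969241), the ketosteroid reductase of the demethylation steps, had 108, 89 and 101 CPM in hypoxia with T3, 111, 103 and 92.5 CPM in hypoxia, and 140, 129 and 128 CPM in normoxia. All 6 hypoxic libraries, with or without T3, were below all 3 normoxic ones. Its log2 change in hypoxia was -0.37 (SE 0.08, adjusted p = 0.0061), and the adjusted p stayed at or under 0.027 in all 21 alternative settings.

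Lss, the lanosterol synthase that closes the sterol rings, had 187, 155 and 179 CPM in hypoxia with T3, 170, 156 and 142 CPM in hypoxia, and 197, 190 and 172 CPM in normoxia. Hypoxia was lower in every library by a narrow margin, with a log2 change of -0.26 (SE 0.08, adjusted p = 0.038). The adjusted p of Lss was 0.12 without normoxia 1, 0.1 without normoxia 2, 0.081 without hypoxia 8 and 0.14 without hypoxia 9. Tm7sf2, a sterol reductase, had 35.5, 33.3 and 33.5 CPM in hypoxia with T3, 32.9, 40.7 and 29.4 CPM in hypoxia, and 44, 45.6 and 40.8 CPM in normoxia. Hypoxia 8 nearly reached normoxia 3, and the log2 change was -0.34 (SE 0.10, adjusted p = 0.025). For Tm7sf2 the adjusted p was 0.064 without normoxia 1, 0.079 without normoxia 2, 0.067 without hypoxia 7 and 0.091 without hypoxia 9. The dehydrogenase Nsdhl, the isomerase Ebp and the reductase Dhcr7 had log2 changes of 0.03, 0.05 and -0.08 in hypoxia and did not pass.

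Of the 5 fatty acid enzymes that do not use oxygen, 2 fell in hypoxia (40%, against 19.3% of all genes tested). The median log2 change was -0.18. Acaca (chr11:84129672-84401651), the acetyl-CoA carboxylase that makes malonyl-CoA at the committed step, had 221, 215 and 248 CPM in hypoxia with T3, 256, 269 and 235 CPM in hypoxia, and 386, 324 and 359 CPM in normoxia. The lowest normoxic value was above the highest hypoxic one. Its log2 change in hypoxia was -0.49 (SE 0.08, adjusted p = 0.001), the largest decrease among the members, and its adjusted p stayed at or under 0.0059 in all 21 alternative settings.

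Fasn, which builds palmitate from malonyl-CoA, had 1800, 1604 and 1623 CPM in hypoxia with T3, 1497, 1432 and 1434 CPM in hypoxia, and 1773, 1624 and 1653 CPM in normoxia. Hypoxia without T3 lay below both other groups in every library. The log2 change of Fasn was -0.21 in hypoxia against normoxia (SE 0.06, adjusted p = 0.019) and 0.20 in hypoxia with T3 against hypoxia (SE 0.06, adjusted p = 0.057). Its adjusted p in hypoxia was 0.053 without normoxia 1, 0.06 without hypoxia 8 and 0.059 without hypoxia 9. Acly, which supplies cytosolic acetyl-CoA, Acss2, which makes it from acetate, and the elongase Elovl6 had log2 changes of -0.18, 0.01 and -0.04 in hypoxia and did not pass.

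The 4 desaturases, which put double bonds into fatty acids with oxygen, had 0 calls in hypoxia by limma. Of all genes tested, 19.3% were lower and 14.3% higher. At an unadjusted p under 0.05, 1 was higher (Fads1) and 0 lower, and edgeR and DESeq2 on recovered reads each called that 1. Scd2 (chr19:44293674-44306864), the main stearoyl-CoA desaturase of mouse brain, had 2436, 2316 and 2461 CPM in hypoxia with T3, 1822, 1954 and 2100 CPM in hypoxia, and 1982, 1683 and 1739 CPM in normoxia. The libraries with T3 were above all others, while hypoxia and normoxia overlapped. Its paralog Scd1 lies on the same chromosome, and reads could be split between them, so their separate values are less certain.

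Scd1 had 85.6, 104 and 86.5 CPM in hypoxia with T3, 73.3, 90.9 and 118 CPM in hypoxia, and 102, 104 and 110 CPM in normoxia. It spread most within hypoxia, and its log2 change there was -0.19 (95% interval -0.49 to 0.12). Fads1 (chr19:10182888-10196877), which desaturates long polyunsaturated chains, had 379, 336 and 353 CPM in hypoxia with T3, 293, 288 and 297 CPM in hypoxia, and 282, 256 and 250 CPM in normoxia. The groups were ordered without overlap, although hypoxia against normoxia missed the threshold (log2 change 0.16, SE 0.06, adjusted p = 0.058). Fads2, the desaturase that acts before Fads1, had 299, 269 and 297 CPM in hypoxia with T3, 256, 283 and 255 CPM in hypoxia, and 319, 268 and 269 CPM in normoxia. The groups of Fads2 overlapped, with a log2 change of -0.11 in hypoxia (95% interval -0.27 to 0.06).

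Among the 5 SREBP regulators, 1 fell and 1 rose in hypoxia (20% each), against 19.3% of all genes tested lower and 14.3% higher. These were the genes for the factors themselves, called in opposite directions. Srebf2 (chr15:82147181-82205379) had 576, 547 and 585 CPM in hypoxia with T3, 552, 555 and 517 CPM in hypoxia, and 685, 624 and 608 CPM in normoxia. Both hypoxic groups were below normoxia in every library, and the log2 change in hypoxia was -0.24 (SE 0.06, adjusted p = 0.0087). Leaving out any library kept the call, and equal column sums ended it (log2 change -0.10, adjusted p = 0.11). Srebf1 had 17.2, 22.8 and 18.2 CPM in hypoxia with T3, 15.1, 21.6 and 27.2 CPM in hypoxia, and 11.5, 13.1 and 17.2 CPM in normoxia. Hypoxia and normoxia overlapped, and the log2 change was 0.55 (SE 0.20, adjusted p = 0.049).

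For Srebf1 the adjusted p was 0.16 without normoxia 1, 0.12 without normoxia 2, 0.11 without hypoxia 8, 0.19 without hypoxia 9 and 0.054 to 0.057 without any T3 library. Within each of the 3 groups its values ran in the same order as the astrocyte marker sums, whose part was not tested. Insig1 (chr5:28071363-28078662), itself a target of SREBP, had 383, 304 and 325 CPM in hypoxia with T3, 290, 250 and 257 CPM in hypoxia, and 225, 229 and 227 CPM in normoxia. Its 3 groups did not overlap. In hypoxia against normoxia the log2 change of Insig1 was 0.22 (SE 0.08) and missed the threshold at an adjusted p of 0.054.

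Scap, the SREBP escort, had 137, 136 and 130 CPM in hypoxia with T3, 129, 122 and 131 CPM in hypoxia, and 138, 138 and 130 CPM in normoxia. Insig2, the second INSIG gene, had 16.8, 16.4 and 16.7 CPM in hypoxia with T3, 16.4, 16.7 and 18.2 CPM in hypoxia, and 18.2, 18.6 and 17.4 CPM in normoxia. Neither was called in any comparison. The sterol carrier Stard4 averaged 114 ± 12.5 CPM in hypoxia with T3, 114 ± 12.8 CPM in hypoxia and 136 ± 10.4 CPM in normoxia, and the phosphatidate phosphatase Lpin1 averaged 36.2 ± 2.09, 34.2 ± 0.623 and 33.5 ± 5.25 CPM in the same groups.

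**Figure D2:**
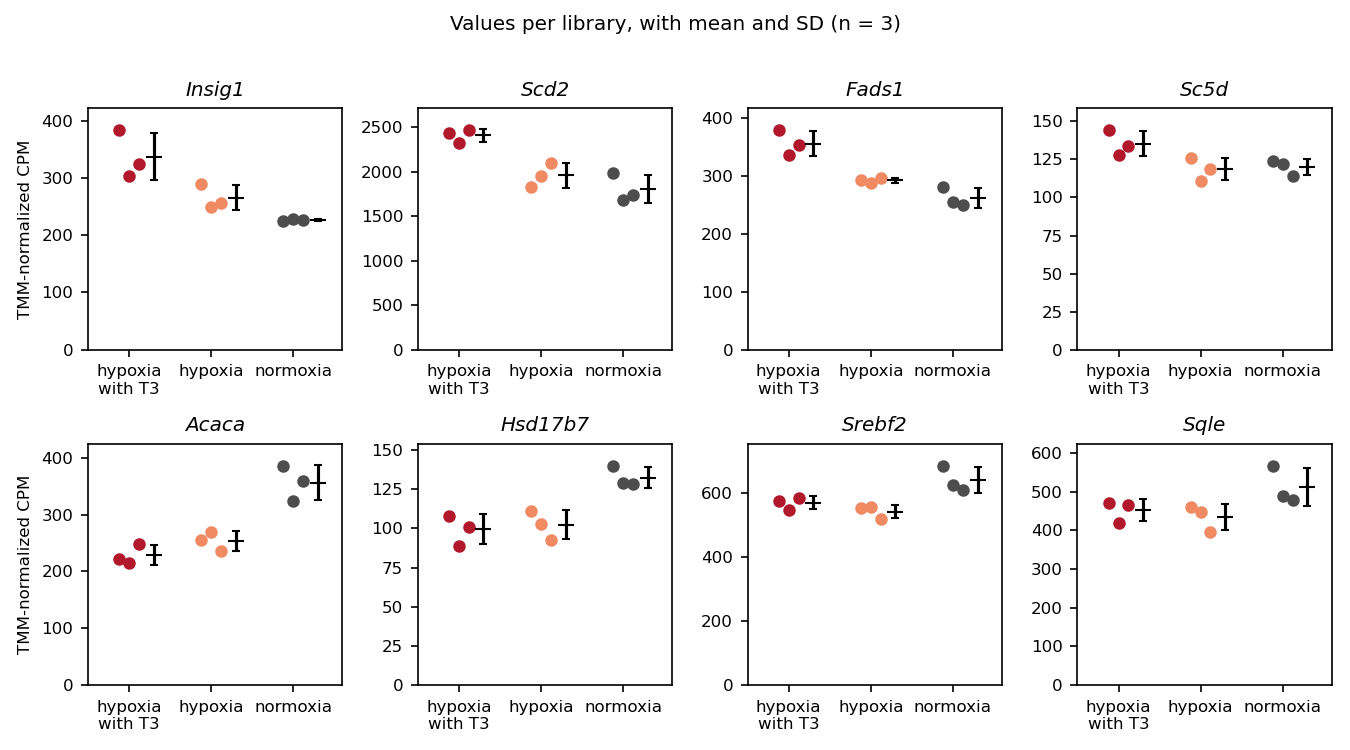
TMM-normalized CPM of 8 members in each library, for hypoxia with T3, hypoxia and normoxia from left to right, with the mean and SD of 3 libraries beside the points and axes that start at 0. Insig1, Scd2, Fads1 and Sc5d were highest with T3, and Acaca, Hsd17b7, Srebf2 and Sqle were highest in normoxia.

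With T3 in hypoxia, the members' differences were mostly upward and small. In hypoxia with T3 against hypoxia, 3 of 34 members rose (8.82%), against 2.73% of all genes tested, and 0 fell, against 3.75% of all genes, by limma (6.48% of all genes in either direction). At an unadjusted p under 0.05, 6 were higher and 0 lower. On recovered reads, edgeR called 3 higher and 0 lower, and DESeq2 called 6 higher and 0 lower. The log2 change was above 0 in 28 of 34 members, with a median of 0.09 against -0.01 for all genes tested. The members' median was 0.047 without hypoxia 9, where 9 members changed sign, 0.053 without T3 11, 0.152 without T3 12 and 0.015 with library weights, where 12 changed sign. The values of 6 of 34 members lay wholly higher with T3 (Pmvk, Sc5d, Insig1, Fasn, Scd2 and Fads1), a share near the 15.8% of all genes. Those of 0 lay wholly lower, against 15.8% of all genes. For the 31 members that did not pass, the 95% intervals ran from -0.53 to 0.51 at their outermost.

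The 3 that rose with T3 were Insig1, Scd2 and Fads1. Insig1 averaged 337 ± 40.9 CPM in hypoxia with T3 and 266 ± 21.2 CPM in hypoxia (log2 change 0.34, SE 0.08, adjusted p = 0.037). Scd2 averaged 2404 ± 77.6 CPM in hypoxia with T3 and 1959 ± 139 CPM in hypoxia (log2 change 0.30, SE 0.07, adjusted p = 0.039). Fads1 averaged 356 ± 21.8 CPM in hypoxia with T3 and 293 ± 4.43 CPM in hypoxia (log2 change 0.28, SE 0.06, adjusted p = 0.028). In each case the lowest library with T3 was above the highest hypoxia library without it, as for 15.8% of all genes tested. All 3 calls depended on single libraries and were lost without hypoxia 7 (adjusted p 0.06 to 0.11), hypoxia 8 (0.12 to 0.15), T3 11 (0.12 to 0.15) or T3 12 (0.068 to 0.11). Insig1 also lost its call without normoxia 2 (0.055) or hypoxia 9 (0.064), and Scd2 without T3 13 (0.05). All 3 were also lost with no filter on low values (0.058 to 0.098) or without a variance trend (0.07 to 0.082), and Scd2 with quantile normalization (0.12).

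Between hypoxia with T3 and normoxia, 6 of 34 members were lower (17.6%, against 29.5% of all genes tested) and 4 were higher (11.8%, against 25.5%), where 55.1% of all genes were called. The values of 7 of 34 members lay wholly lower and of 5 wholly higher, shares below the 33.0% and 29.8% of all genes. Both shares of calls are below those of all genes. With equal sums 2 members were lower and 8 higher, and the calls of Tm7sf2 (adjusted p = 0.07), Stard4 (0.2), Hmgcs1 (0.24) and Srebf2 (0.28) ended. The 4 higher were Insig1 (log2 change 0.56, adjusted p = 1.8e-04), Fads1 (0.44, 1.2e-04), Scd2 (0.42, 5.8e-04) and Sc5d (0.17, 0.035). The 6 lower included Acaca (log2 change -0.64, adjusted p = 5.8e-05), Hsd17b7 (-0.42, 0.0014) and Tm7sf2 (-0.34, 0.015). The others were Stard4 (-0.25, 0.045), Hmgcs1 (-0.18, 0.043) and Srebf2 (-0.16, 0.028). Insig1, Fads1, Scd2, Acaca and Hsd17b7 passed in all 21 alternative settings. This comparison shares the T3 libraries with the previous one and the normoxia libraries with the first, so it is no separate evidence.

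The calls of 5 of these genes depended on single libraries. Tm7sf2 missed the threshold without normoxia 2 (adjusted p = 0.054). Sc5d missed it without normoxia 2 or 3 or T3 11 or 13 (0.058 to 0.13), and Srebf2 without normoxia 1 or T3 11 or 12 (0.051 to 0.11). Stard4 missed it without normoxia 1 or 2, hypoxia 8 or T3 11 or 12 (0.059 to 0.19). Hmgcs1 missed it without any of the normoxia libraries, hypoxia 8 or T3 12 or 13 (0.062 to 0.13).

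The 8 oxygen-using enzymes, which take oxygen as a substrate, were set beside the 20 other enzymes, which include Lpin1. In hypoxia against normoxia, 1 of 8 oxygen-using enzymes fell and 0 rose, with a median log2 change of -0.04 and a range of -0.23 to 0.16. Of the 20 other enzymes, 6 fell and 0 rose, with a median of -0.12 and a range of -0.49 to 0.05. The shares that fell, 12.5% and 30%, lie on either side of the 19.3% of all genes tested, and 14.3% of all genes rose. These shares were not tested against each other. At an unadjusted p under 0.05, 1 oxygen-using enzyme was lower and 1 higher, and 7 others were lower and 0 higher. On recovered reads, edgeR called 0 oxygen-using enzymes lower and 1 higher, and 6 others lower and 0 higher. DESeq2 called 1 oxygen-using enzyme lower and 1 higher, and 7 others lower and 0 higher. At equal column sums the medians were 0.098 and 0.015, so the sign of both depends on that scaling while their order does not. Single libraries moved them too. The median of the oxygen-using enzymes was 0.0024 without normoxia 1, -0.0052 without hypoxia 9, -0.065 without normoxia 2, -0.072 without normoxia 3 and -0.071 without hypoxia 7, and that of the others was -0.075 without normoxia 1 and -0.065 without hypoxia 9. In hypoxia with T3 against hypoxia, 2 of 8 oxygen-using enzymes rose (25%) and 0 of 20 others did, against 2.73% of all genes tested. The medians were 0.11 and 0.10. At an unadjusted p under 0.05, 3 oxygen-using enzymes and 2 others were higher, as by DESeq2 after adjustment, while edgeR called 2 and 0.

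Within a library, the difference between the mean levels of the lists does not depend on how the library is scaled. Relative to the normoxia mean on the log2 scale, the oxygen-using enzymes stood above the others by 0.12, 0.23 and 0.12 in hypoxia with T3, by 0.02, 0.05 and 0.23 in hypoxia, and by 0.00, -0.01 and 0.01 in normoxia. The lowest hypoxic library, hypoxia 7, was only just above the highest normoxic one, normoxia 3, at 0.02 against 0.01, and hypoxia with T3 and hypoxia overlapped through hypoxia 9. In each group the difference was largest in the library highest in astrocyte markers, at 0.23 in T3 12, 0.23 in hypoxia 9 and 0.01 in normoxia 3, where the mean log2 level of those markers was 1.51, 1.71 and 0.77. The part of the glial markers in this difference was not tested. The lists were chosen with these data in view, so this difference was given no test.

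**Figure D3:**
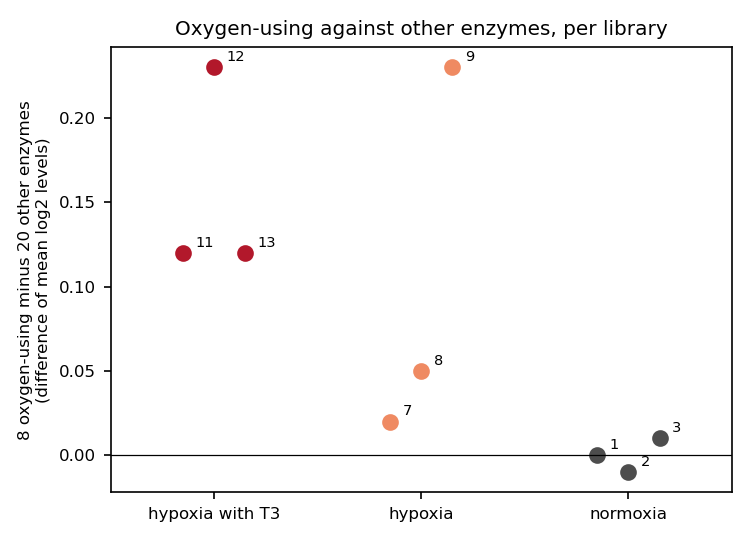
Mean log2 level of the 8 oxygen-using enzymes minus that of the 20 other enzymes in each library, set to the normoxia mean, for hypoxia with T3, hypoxia and normoxia from left to right, with library numbers beside the points. The normoxic libraries lie within 0.01 of 0, the hypoxic ones at 0.02 to 0.23 and those with T3 at 0.12 to 0.23.

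Desaturases and sterol enzymes were also followed apart. The desaturases' mean log2 level was 0.19, 0.16 and 0.17 in hypoxia with T3, -0.12, 0.01 and 0.10 in hypoxia, and 0.09, -0.06 and -0.03 in normoxia. The 4 sterol enzymes that use oxygen stood at 0.09, -0.08 and 0.05 in hypoxia with T3 and at 0.03, -0.09 and -0.18 in hypoxia. Their normoxic values were 0.10, -0.03 and -0.07. The desaturases stood above these sterol enzymes in every library with T3, and in hypoxia in all but hypoxia 7. The mevalonate arm stood at 0.10, -0.13 and 0.01 in hypoxia with T3 and at -0.02, -0.09 and -0.27 in hypoxia. The 6 sterol enzymes that do not use oxygen stood at 0.04, -0.24 and -0.01 with T3 and at -0.08, -0.09 and -0.31 in hypoxia. All 18 sterol enzymes together stood at 0.08, -0.15 and 0.01 in hypoxia with T3 and at -0.03, -0.09 and -0.27 in hypoxia. In normoxia the 18 stood at 0.11, -0.04 and -0.07. For sterol enzymes the range within each group was wider than the distance between any 2 group means.

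That spread was shared by nearly all sterol enzymes. Of the 18, T3 12 had the lowest value of its group in 18, hypoxia 9 in 17 and normoxia 3 in 12, while T3 11 had the highest in 15, hypoxia 7 in 15 and normoxia 1 in 16. The astrocyte markers moved the other way. Their mean log2 level was 0.69 to 1.51 in hypoxia with T3 (highest in T3 12), 0.02 to 1.71 in hypoxia (highest in hypoxia 9) and -0.92 to 0.77 in normoxia (highest in normoxia 3), so the library lowest in sterol enzymes was the highest in astrocyte markers in each group. In each group it was also the highest in oligodendrocyte lineage markers, at 1.02 for T3 12, 1.09 for hypoxia 9 and 0.60 for normoxia 3. The part of the glial share in the results was not tested. Without hypoxia 9 the number of members that fell in hypoxia was 4 (Acaca, Hsd17b7, Scd1 and Srebf2), and without normoxia 1 it was 3 (Acaca, Hsd17b7 and Srebf2).

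**Figure D4:**
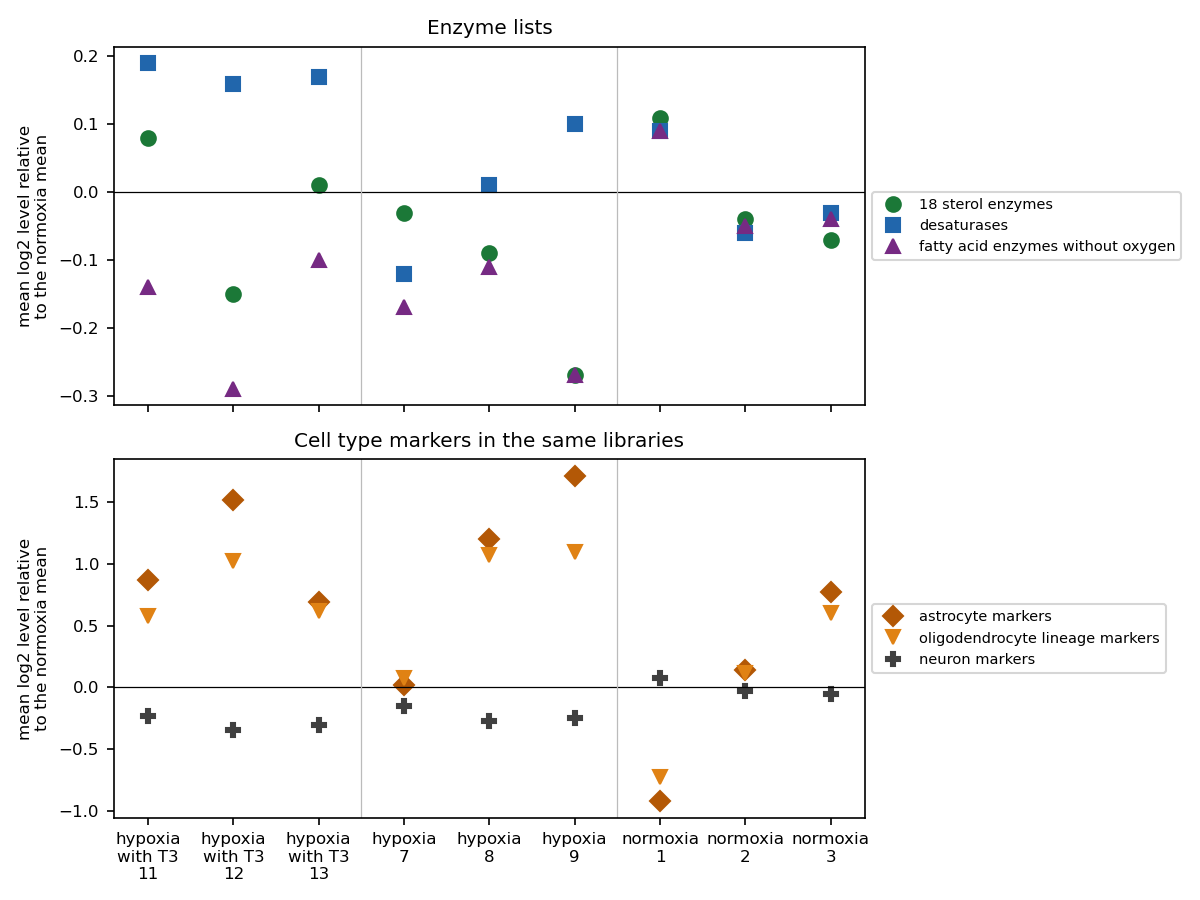
Mean log2 level, relative to the normoxia mean, of 3 enzyme lists (upper panel) and 3 marker lists (lower panel) in each library, for hypoxia with T3, hypoxia and normoxia from left to right. T3 12 and hypoxia 9 are lowest in sterol enzymes, at -0.15 and -0.27, and highest in astrocyte markers, at 1.51 and 1.71.

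Some genes around these pathways had larger changes than any member. Of 19 tested genes of sterol uptake, export and storage, 5 rose (26.3%) and 4 fell (21.1%) in hypoxia. Of all genes tested, 14.3% were higher and 19.3% lower in hypoxia, the shares to set beside each list here and below. Soat1, which esterifies cholesterol for storage, averaged 13.2 ± 2.09 CPM in hypoxia and 7.88 ± 0.951 CPM in normoxia (log2 change 0.68, adjusted p = 0.0029). Vldlr, a lipoprotein receptor, averaged 141 ± 5.22 CPM in hypoxia and 99.7 ± 7.95 CPM in normoxia (log2 change 0.50, adjusted p = 8.6e-04). The lysosomal cholesterol carrier Npc2 (log2 change 0.42) and the endosomal one Stard3 (0.37) rose too. All 4 passed without any single library.

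Of 13 other sterol and isoprenoid genes, 5 fell (38.5%) and 1 rose (7.69%) in hypoxia. Mbtps1, a Golgi protease that cleaves SREBP, averaged 55.7 ± 2.38 CPM in hypoxia and 70.5 ± 5.14 CPM in normoxia (log2 change -0.33, adjusted p = 0.0053, and 0.053 with equal column sums). Fdxr, the reductase that feeds electrons to mitochondrial cytochromes P450, averaged 12.3 ± 0.992 CPM in hypoxia and 7.13 ± 0.761 CPM in normoxia (log2 change 0.71, adjusted p = 0.0013). Of 19 genes of fatty acid elongation and supply, 5 fell (26.3%) and 3 rose (15.8%). The acyl-CoA synthetase Acsl4, which favours arachidonate, fell by 0.52 on the log2 scale (adjusted p = 3.2e-04). The elongases Elovl1 (0.69, adjusted p = 0.0043) and Elovl4 (0.31, 0.0042) and the synthetase Acsl5 (0.50, 0.0056) rose. These calls held without any single library.

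Of 11 tested electron donor genes, 1 rose (9.09%) and 0 fell in hypoxia. It was Pgd, an NADPH source, which averaged 91.1 ± 3.77 CPM in hypoxia and 65.2 ± 3.54 CPM in normoxia (log2 change 0.48, adjusted p = 7.3e-04). Of 7 lipid genes known to respond to T3, 1 fell (14.3%) in hypoxia, the coactivator Ppargc1a (log2 change -0.48, adjusted p = 0.003). Of 9 lipid genes known to respond to hypoxia, 2 rose (22.2%) and 1 fell (11.1%). They were Vldlr, given above, the lipid droplet gene Hilpda (log2 change 0.42, adjusted p = 0.033) and the lipase Pnpla2 (-0.34, 0.022). Hilpda lost its call without normoxia 2 or 3 or any hypoxia library (adjusted p up to 0.11), and Pnpla2 without normoxia 1, hypoxia 7 or hypoxia 8 (up to 0.082) or with equal column sums (0.11).

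With T3 in hypoxia, at most 2 genes of each wider list were called, where 2.73% of all genes tested were higher and 3.75% lower. The T3-responsive list had the highest share (28.6%). That list was built from genes known to respond to T3, and its calls are the known targets Hr and Klf9. Its share is therefore no separate evidence on lipid genes. In hypoxia with T3 against hypoxia, 2 of the 19 uptake, export and storage genes rose (10.5%) and 0 fell. Npc2 averaged 117 ± 7.93 CPM in hypoxia with T3 and 86.3 ± 6.02 CPM in hypoxia (log2 change 0.43, adjusted p = 0.018). Mylip, a ubiquitin ligase that degrades lipoprotein receptors, averaged 19.1 ± 1.96 CPM in hypoxia with T3 and 12.5 ± 1.58 CPM in hypoxia (log2 change 0.58, adjusted p = 0.022). Fdxr rose to 19.2 ± 2.75 CPM in hypoxia with T3, against 12.3 ± 0.992 CPM in hypoxia (log2 change 0.60, adjusted p = 0.022). Mbtps1 fell to 46.1 ± 3.28 CPM in hypoxia with T3, against 55.7 ± 2.38 CPM in hypoxia (log2 change -0.27, adjusted p = 0.05). Leaving out hypoxia 8, T3 11 or T3 12 ended all 4 calls, with adjusted p up to 0.089 for Npc2, 0.097 for Mylip, 0.11 for Fdxr and 0.18 for Mbtps1. Npc2, Fdxr and Mbtps1 also lost theirs without hypoxia 7, and Mbtps1 without normoxia 2 or 3 or hypoxia 9. Of the 7 T3-responsive lipid genes, 2 rose and 0 fell, with a median log2 change of -0.02. They were Hr, given above as a label check, and Klf9, a transcription factor gene induced by thyroid hormone. Klf9 averaged 51.5 ± 5.35 CPM in hypoxia with T3 and 21.7 ± 2.75 CPM in hypoxia (log2 change 1.21, adjusted p = 0.0018). Both passed without any single library. The elongation and supply, electron donor and hypoxia-responsive lists had 0 calls by limma. At an unadjusted p under 0.05, the elongation and supply list had 2 genes lower and 4 higher, and each of the other lists had 0 lower and 1 higher. On recovered reads edgeR called 0 genes of these lists, and DESeq2 called 2 elongation and supply genes and 1 electron donor gene higher.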

How the data were processed

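Per the labels, poly-A stranded libraries were made from 9 samples, 3 per group. In the deposited table, with 1 column per library, the authors give TMM-normalized CPM, treated here as a scaled signal. The tools named are RSEM 1.2.15, Bowtie2 2.1.0 and edgeR, on mm10, per the submitters' processing notes. The annotation, the strand setting and filters are not given in the sources used here. Columns sum to 945822 to 1091200. Within 0.01 reads, 99.89% to 100.00% of values were whole multiples of 1 read, which gave the reads per library. An unnamed column with 4 values was not used.

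Genes above 1 CPM in at least 3 libraries (12923) were fitted with limma 3.58.1 in R 4.3.3 on log2 of the value plus 1, all 9 libraries together, with a variance trend. P-values are two-sided and were adjusted by Benjamini-Hochberg over the 12923 genes, with a threshold of 0.05. Means and SDs are of the values, n = 3. Gene positions and exon lengths are from GENCODE on mm10; promoters are from RefSeq. The method was tested on simulated counts, but no result of that test is given here, so it adds no weight to the calls. The alternatives were other pseudocounts (0.1, 5), other filters, only the compared groups, other scalings, no trend, library weights, edgeR 4.0.16 and DESeq2 1.42.0 on recovered reads, a threshold of 0.01, and leaving out each library.

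The members and lists were chosen with earlier results of these data known. Values in every library are given for the oxygen-using enzymes, the SREBP regulators and every other member past the threshold in hypoxia against normoxia or with T3 against hypoxia. From wider lists, up to 4 genes past the threshold with the smallest adjusted p per list and comparison were eligible to be named; some are not reported here.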

Additional observations from a re-analysis of the deposited data

How the results depend on the processing

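The groups hold 3 libraries each, so small changes can be missed. No paired analysis was possible because the numbers of the hypoxia and T3 columns correspond to no replicate number in the titles. Over 34 members, 3 comparisons and 22 settings, 1947 of 2244 results kept their direction and side of the threshold, 119 changed sign without passing it in either setting, 123 no longer passed it and 55 came to pass it. No result that passed in either setting changed sign. The causes of the shifts below were not tested, apart from the stricter threshold and the fewer libraries.

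In hypoxia against normoxia, 8 members were lower, and 4 were with no filter on low values, 2 with equal column sums, 4 with quantile normalization, 5 without a trend and 3 at a threshold of 0.01. Leaving out 1 library gave 3 to 9. The count of higher members was 1, and 0 with a pseudocount of 5, no filter, no trend or the 0.01 threshold, 4 with equal sums or quantile normalization, and 3 with edgeR or DESeq2. Leaving out 1 library gave 0 to 2. The median log2 change of the members, -0.088, became 0.051 with equal sums and 0.0048 with quantile normalization. That of the oxygen-using enzymes, -0.042, became 0.098 and 0.074, and that of the other enzymes, -0.125, became 0.015 and -0.0089. Equal sums moved the median of all genes by 0.13 and the share of calls that were higher to 76.3% against 42.5%.

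In hypoxia with T3 against hypoxia, 0 members were lower, and 2 were with library weights, which changed the sign of 12 members. The count of higher members was 3, and 0 with no filter, no trend or the 0.01 level, 5 when a mean of 5 CPM was required and 6 with DESeq2. Leaving out 1 library gave 0 to 3. With equal sums 29% of all calls were higher, against 42.1%.

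In hypoxia with T3 against normoxia, 6 members were lower, and 3 were with no filter or no trend, 2 with equal sums or the 0.01 threshold and 10 with library weights. Leaving out 1 library gave 3 to 6. The count of higher members was 4, and 8 with equal sums. Leaving out 1 library gave 3 to 5. With equal sums the median of the members was 0.115 against 0.0094, and that of the oxygen-using enzymes 0.151 against 0.046, or 0.143 with quantile normalization. With equal sums 61.3% of all calls were higher, against 46.4%.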
